A study of Saccharomyces cerevisiae with 54 samples.

Results

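Convergent gaps are the stretches between a gene read rightwards on the Watson strand and its right-hand neighbour read leftwards on the Crick strand. They were taken from the R64 gene table of *S. cerevisiae* as every gap of 100 to 2000 bp between 2 neighbouring, non-overlapping nuclear protein-coding genes with this arrangement. The rule gave 1314 convergent gaps among 5437 gaps of that length between the 6002 coding genes, beside 1431 divergent gaps (both genes pointing away) and 2692 tandem gaps (both genes on the same strand). No measured value was used to choose them. The convergent gaps had a median length of 251.5 bp, against 501 bp for divergent and 399 bp for tandem gaps, and covered 445585 bp together. They lay on all 16 chromosomes, from 19 on chromosome I to 174 on chromosome IV, and 51 of them held an annotated RNA gene.

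The study profiled histone acetylation and the histone deacetylase Hda1 by ChIP-seq in yeast grown at 30 °C in rich medium with 2% glucose. Acetylated histone H4 (H4ac) and acetylated histone H3 (H3ac) were profiled in wild type, hda1-/- cells, which lack the catalytic subunit Hda1, and tup1-/- cells, which lack the corepressor Tup1. Anti-myc ChIP-seq was made in untagged cells (Untag), in cells whose Hda1 carried 18 myc copies at its C-terminus (Hda1-18myc) and in cells with the same tag on Hda1 without its Arb2 domain (Hda1(arb2{delta})-18myc). Some H4ac and anti-myc libraries were labelled as spike-in control, and the others and all H3ac libraries carried no such remark. The study describes the spike-in as added chromatin of *S. pombe*. Libraries with the remark are called the spike-in set here, and those lacking it the set without spike-in. The labels do not say that the latter lacked such chromatin. Each group had 2 libraries. The peak lists gave 30 libraries, 12 of H4ac, 6 of H3ac and 12 of myc, and the value used throughout is the share of a gap lying under called peaks (peak coverage, in percent). Differences between such shares are in percentage points. The number of reads behind a peak is unknown from these lists, so no counting error can be given. The study describes the paired libraries as independent experiments, but the labels do not say whether they were separate cultures, so p-values measure only the spread between these libraries.

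A convergent gap holds the 3′ ends and terminators of both neighbours and the promoter of neither. In budding yeast, acetylation of H3 and H4 is known to be densest at promoters and the first nucleosomes of genes, and convergent gaps are known as places where cohesin collects. Hda1 acts in a complex with Hda2 and Hda3 that removes acetyl groups from histone tails, and Tup1 with its partner Cyc8 recruits deacetylases to repressed promoters.

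The acetylation lists held 2191 to 3197 peaks each, those of Hda1-18myc 846 to 983, those of Hda1(arb2{delta})-18myc 59 to 628 and those of Untag 10 to 235. A library of Untag (replicate 1 of the spike-in set, with 235 peaks) and a library of Hda1(arb2{delta})-18myc (replicate 2 of the spike-in set, with 59 peaks) stood apart from their partners. Between the 2 libraries of an acetylation group, 7.38% to 11.6% of the convergent gaps differed by at least 10 points. The gaps beside the deleted genes were read first. The gap between HDA1 and ARK1 (chrXIV:595348-595622) had no H3ac peak in wild type and 41.1% and 50.2% coverage in the hda1-/- libraries. Its H4ac coverage in hda1-/- cells was 38.5% and 37.1% without spike-in and 0% in both libraries with it. The gap between TRX3 and TUP1 (chrIII:259962-260310) had H4ac coverage of 6.59% and 3.15% in wild type and 34.1% and 40.7% in tup1-/- cells of the spike-in set. Its H3ac coverage was 0% in both tup1-/- libraries, as in wild type. Neither gap lies within the deleted gene, so these values do not check the labels.

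Acetylation peaks were scarce in convergent gaps in every library. In wild type of the spike-in set, a convergent gap was covered by H4ac peaks over 17.1% and 17.2% of its length, a tandem gap over 46.9% and 47.7%, and a divergent gap over 66.6% and 67.4%. Without spike-in the convergent values were 14.8% and 14.0%, and H3ac coverage in wild type was 13.9% and 13.0%. Over the 12 H4ac libraries of all strains, convergent gaps lay 46.9 ± 7.90 points (SD) below divergent gaps and 27.2 ± 4.42 points below tandem gaps. The sign was the same in 12 of 12 libraries (two-sided exact sign-flip permutation test, p = 0.000488, adjusted over 6 tests 0.00146, in both comparisons), and this p is the smallest that 12 libraries allow. For H3ac the differences were 33.7 ± 3.34 and 23.5 ± 1.30 points, with convergent gaps lower in 6 of 6 libraries (exact sign-flip permutation test, p = 0.0312, the smallest possible, adjusted 0.0312). Leaving out any H3ac library raised that p to 0.0625, the smallest that 5 libraries allow.

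Anti-myc peaks of tagged Hda1 covered convergent gaps more than the other classes. Hda1-18myc covered 16.8% and 15.1% of a convergent gap in the spike-in set and 13.1% and 12.7% in the set without. Over the 8 libraries of tagged Hda1, with or without the Arb2 domain, convergent gaps lay 5.46 ± 2.46 points above divergent and 3.98 ± 1.79 points above tandem gaps, in 8 of 8 libraries (exact sign-flip permutation test, p = 0.00781, adjusted 0.0117). With the 4 Hda1-18myc libraries alone the differences were 6.98 and 4.86 points, with an exact sign-flip permutation p of 0.125, the smallest that 4 libraries allow. When the strongest peaks of each library were taken up to 1 common covered length, the lead over tandem gaps shrank to 0.0498 points (exact sign-flip permutation p = 0.453), and that over divergent gaps to 0.263 points. The common length was 49817 bp, that of the domain-deleted library with 59 peaks. In that library convergent gaps were covered over 0.523% and tandem gaps over 0.296%. A lead of several points could hardly appear at such a length, so this setting cannot decide whether the lead holds. With gaps of 200 to 500 bp only, the lead was 6.98 points over tandem and 9.71 points over divergent gaps. The untagged cells had the same order at a lower level in 3 of 4 libraries. Untag covered 2.47% of a convergent, 0.485% of a tandem and 0.0934% of a divergent gap in replicate 1 with spike-in, and 0.448%, 0.253% and 0.0305% in replicate 1 without. In replicate 2 the values were 0%, 0.0432% and 0% with spike-in and 0.292%, 0.247% and 0.0316% without.

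**Figure D1:**
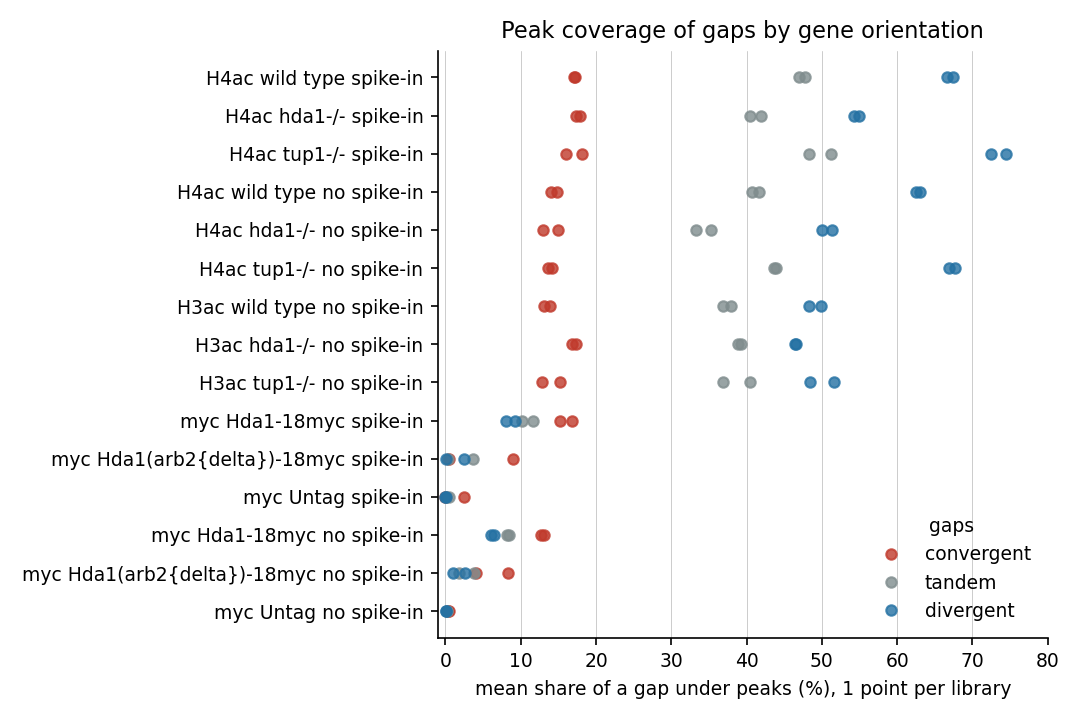
Mean peak coverage of convergent (red), tandem (grey) and divergent (blue) gaps in percent of gap length, with 1 point per library and 2 libraries per group. In all 18 acetylation libraries the red points lie below the grey and blue ones, whereas in all 4 Hda1-18myc libraries they lie above them.

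Coverage around the gap followed opposite courses for acetylation and for Hda1. Seen from the centre of the convergent gaps, wild-type H4ac coverage of the spike-in set fell from 38.7% at 1500 bp to the left to 16.9% at the centre and rose to 40.5% at 1500 bp to the right, as means of the 2 libraries. H3ac coverage ran from 27.7% to 13.3% to 28.7% at the same points. Hda1-18myc coverage rose from 8.36% to 16.1% at the centre and fell to 8.64%. The last 300 bp of the 2 coding regions beside a gap were covered by H4ac over 22.0% and 22.6% in wild type, above the gap itself in both libraries. For Hda1-18myc the same coding ends gave 13.7% and 12.2%, below the gap in both libraries.

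**Figure D2:**
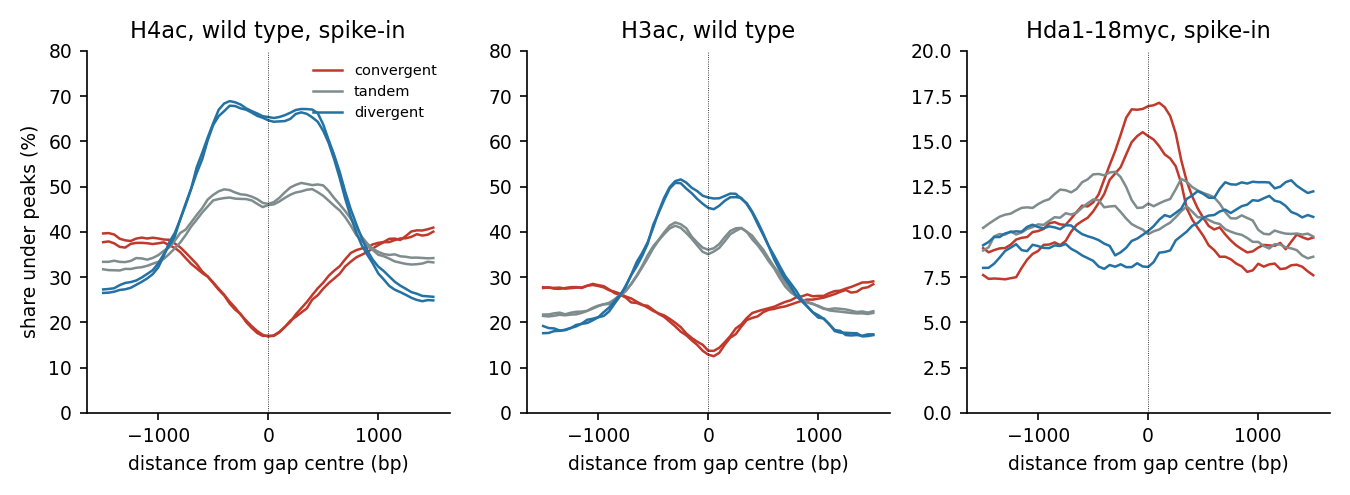
Share of positions under peaks (percent, mean of 51 bp windows) against distance from the gap centre (bp) for convergent, tandem and divergent gaps, with 1 line per library. The convergent line has its low point at the centre for wild-type H4ac (16.9%) and H3ac (13.3%) and its high point near the centre for Hda1-18myc (16.1%, on an axis that ends at 20%).

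Most convergent gaps carried no acetylation peak at all. In 823 of the 1314 (62.6%) no H4ac peak reached the gap in any of the 12 libraries, against 7.41% of divergent and 18.0% of tandem gaps. No peak of either mark reached 760 (57.8%) in any of the 18 acetylation libraries. At the other end, 158 convergent gaps (12.02%) were covered over at least 50% of their length by H4ac in all 4 wild-type libraries, where the share among all gaps was 34.0%. For H3ac, 135 (10.3%) met the same condition in both wild-type libraries, against 30.1% of all gaps. The marks shared 83 gaps, which is 52.5% of the H4ac gaps and 61.5% of the H3ac gaps.

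Coverage varied with gap length in different ways for H4ac and Hda1. The 464 gaps of 100 to 199 bp had wild-type H4ac coverage of 22.1% and 21.9% in the spike-in set, the 286 gaps of 300 to 499 bp 12.6% and 13.3%, and the 61 gaps of 1000 to 2000 bp 20.2% and 21.0%. Hda1-18myc coverage rose through every length class, from 9.39% and 7.66% in the shortest to 32.2% and 28.6% in the longest. Of the 6 gaps of exactly 100 bp, the shortest allowed, the one between SRB6 and TRS20 was filled by H4ac in wild type (mean 100% over 4 libraries), while the gap of 99 bp between GRX2 and YDR514C, just outside, had 7.83%. The longest gap allowed, of 2000 bp between AAC3 and YBR085C-A, had H4ac coverage of 0.488%, and the gap of 2016 bp between HOG1 and AVL9, just outside, had 56.5%.

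Hda1 occupied a defined subset of convergent gaps. With at least 50% coverage in both libraries as the condition, Hda1-18myc was bound at 190 convergent gaps in the spike-in set (14.5%, against 9.82% of all gaps) and at 162 without spike-in (12.3%, against 7.82%). The 4 libraries together left 155 gaps (11.8%), which are called Hda1-bound here, against 7.50% of all gaps, 5.10% of divergent and 6.69% of tandem gaps. The Untag libraries met the condition together at 0 convergent gaps in the spike-in set (0.0184% of all gaps) and at 3 without spike-in (0.110% of all gaps). Singly, the Untag libraries covered 2.47% and 0% of a convergent gap with spike-in and 0.448% and 0.292% without. At least 1 Untag peak touched 80 convergent gaps in any of these 4 libraries, and 74 of these were Hda1-bound. The remaining 81 Hda1-bound gaps had no Untag peak in any of the 4 libraries.

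At the Hda1-bound gaps H4ac was about as frequent as at convergent gaps in general, and H3ac was more frequent. Of the 155 Hda1-bound gaps, 115 (74.2%, against 70.3% of all convergent gaps) had no H4ac peak in any wild-type library, and 16 (10.3%, against 12.02%) were covered over at least 50% by H4ac in all 4. H3ac covered 29 (18.7%, against 10.3%) over at least 50% in both wild-type libraries. Mean H3ac coverage in wild type was 23.2% and 22.3% at these gaps, and 12.7% and 11.8% at the other 1159. Their median length was 328 bp, against 241 bp for the other 1159 convergent gaps. An RNA gene lay in 33 of them. The 81 Hda1-bound gaps without any Untag peak stood higher in both marks. Their wild-type H4ac coverage was 23.3% and 23.5% with spike-in, against 14.2% and 13.9% at all 155 and 17.5% and 17.6% at the other 1159. Without spike-in it was 21.5% and 20.5%, and their H3ac coverage was 31.6% and 31.8%.

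Removal of the Arb2 domain, the C-terminal part of Hda1, went with lower coverage of convergent gaps in both sets. In the spike-in set coverage was 9.03% and 0.523% in the Hda1(arb2{delta})-18myc libraries, against 16.8% and 15.1% in Hda1-18myc, a difference of -11.2 points. Without spike-in it was 8.31% and 4.05% against 13.1% and 12.7%, a difference of -6.73 points. The groups did not overlap in either set, and 2 libraries against 2 give no exact permutation p under 0.333, the value found in both. Without replicate 2 of the domain-deleted protein, the library with 59 peaks, the spike-in difference was -6.94 points. The domain-deleted protein met the condition for binding in both libraries at 6 convergent gaps with spike-in (0.457%, against 0.239% of all gaps) and at 46 without (3.50%, against 1.45%). The libraries of the spike-in set differed widely: 119 gaps met it in replicate 1 and 6 in replicate 2. Of the 190 gaps bound by Hda1-18myc in the spike-in set, 122 were lower by at least 10 points in both domain-deleted libraries, as were 91 of the 162 without spike-in, and 0 convergent gaps were higher by that margin in either set. The 190 and 162 gaps were chosen for high Hda1-18myc coverage, which favours a fall in the other strain. These counts are therefore descriptions, and the matching share over all gaps is not given here.

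With every list cut to the same covered length, that of the shortest of the 4 lists compared, the total coverage of the genome is equal by construction, and only the place of the strongest peaks can differ. The difference at convergent gaps was then 0.0269 points with spike-in (exact permutation p = 1) and 1.39 points without (p = 0.333). Binding in both libraries then stood at 6 gaps for Hda1-18myc with spike-in and at 32 without, against 4 and 30 for the domain-deleted protein. The peak lists of Hda1(arb2{delta})-18myc covered 49817 to 519769 bp of the genome and those of Hda1-18myc 834009 to 1200305 bp.

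Hda1 was bound at nearly all convergent gaps at the end of a ribosomal protein gene. A ribosomal protein gene flanked 69 convergent gaps, and 67 of these (97.1%) were Hda1-bound, against 11.8% of all convergent gaps. Hda1-18myc covered 97.2% and 96.1% of such a gap with spike-in and 93.3% and 92.4% without, and Untag covered 26.2% and 0% with spike-in and 1.18% and 1.23% without. Among 11 gaps beside a gene of glycolysis, 9 were Hda1-bound, among 6 beside a histone gene 5, and among 4 beside a translation factor gene 3. None of the 21 gaps beside a gene of meiosis and none of the 7 beside a glucose-repressed gene was Hda1-bound, and no anti-myc peak of any kind touched the 21. These lists were chosen with earlier results of these data known, so their counts are descriptions.

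Gaps holding an RNA gene were also well covered by Hda1-18myc. The 34 gaps with a tRNA gene had 66.5% and 65.8% coverage in the spike-in set, the 13 with a snoRNA gene 86.8% and 87.6%, and the 1263 without an RNA gene 14.6% and 12.9%. The tRNA gaps had a median length of 1039.5 bp and the snoRNA gaps of 876 bp, against 244 bp for those without an RNA gene. Untag coverage of the tRNA gaps was 2.23% and 0% with spike-in and 0% in both libraries without.

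**Figure D3:**
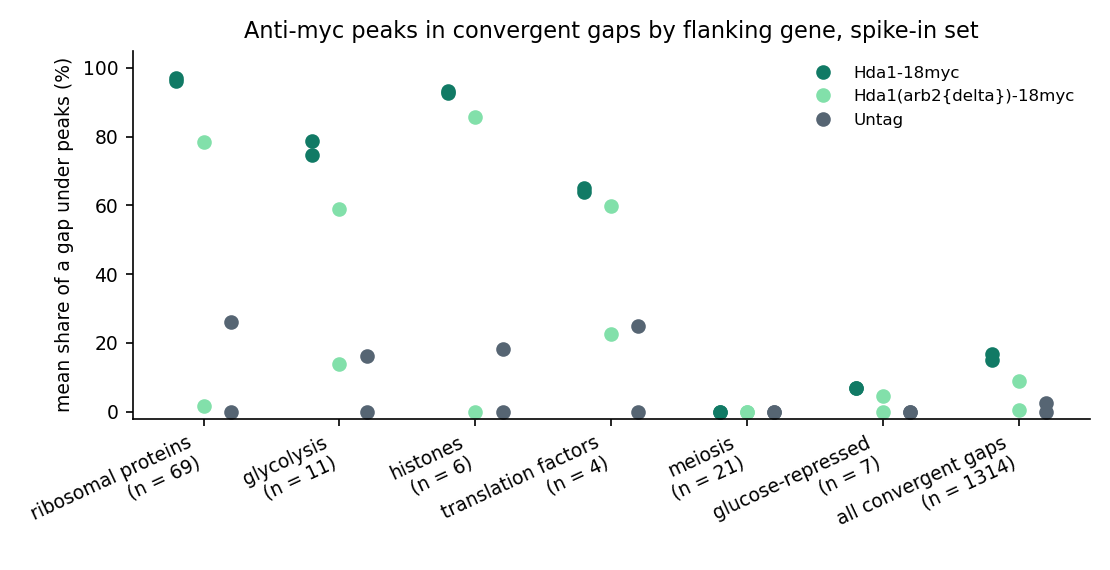
Mean anti-myc peak coverage (percent of gap length) of convergent gaps in the spike-in set, grouped by the gene beside the gap, with 1 point per library. Hda1-18myc lies at 97.2% and 96.1% beside ribosomal protein genes and at 0% beside genes of meiosis, and the 2 Hda1(arb2{delta})-18myc libraries lie far apart in the first 3 lists.

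The 5 convergent gaps with the strongest Hda1-18myc peaks at full coverage in all 4 libraries were among 90 gaps so covered. AHP1-CCW12 (chrXII:369312-369696) lies between genes for a thioredoxin peroxidase and a cell wall mannoprotein, and was also covered over 100% in 3 of the 4 Untag libraries. HIP1-TDH3 (chrVII:882232-882811), which ends the gene for the main glyceraldehyde-3-phosphate dehydrogenase, had 27.6% and 0% in Untag with spike-in and 56.4% and 40.0% without. TEF1-GRS2 (chrXVI:701971-702113), at the end of a gene for translation elongation factor EF-1 alpha, had 100% and 0% in Untag with spike-in and 14.0% and 0% without. YDR524W-C-YDR524C-B (chrIV:1489493-1489597) was also filled in 3 of 4 Untag libraries. RPL39-SWE1 (chrX:76475-76802), between a ribosomal protein gene and the gene of the Wee1-type kinase, was touched in a single Untag library, at 38.1%. None of these 5 gaps had an H4ac peak in any library.

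Mean H4ac coverage of convergent gaps in hda1-/- cells was within 1 point of wild type in both sets. In the spike-in set it was 17.3% and 17.8% in hda1-/- cells, against 17.1% and 17.2% in wild type, a difference of 0.452 points (exact permutation p = 0.333). Without spike-in it was 14.9% and 13.0% against 14.8% and 14.0%, a difference of -0.460 points (exact permutation p = 1). Over both sets the difference was -0.00357 points (exact permutation within sets, p = 1). Coverage of the other gaps was lower in the mutant at the same time, by 12.2 points for divergent and 6.54 points for tandem gaps. The change at convergent gaps thus exceeded that at tandem gaps by 6.53 points (3.08 points at equal covered length) and that at divergent gaps by 12.2 points (exact permutation within sets, p = 0.0556 in both, the smallest that 2 sets of 2 against 2 allow). The H4ac peaks of hda1-/- cells covered 3424835 and 3515952 bp of the genome with spike-in, against 3867592 and 3974002 bp in wild type. The spike-in mean of convergent gaps joined opposite changes by gap length. In gaps of 100 to 199 bp coverage was 22.1% and 21.9% in wild type and 19.2% and 19.6% in hda1-/- cells. In gaps of 1000 to 2000 bp it was 20.2% and 21.0% against 15.6% and 15.2%. In every length class between these, hda1-/- cells lay above wild type without overlap. With gaps of 200 to 500 bp only, the difference was 2.63 points with spike-in and 0.421 without.

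Single gaps moved in both directions. A gap counted as gained when both mutant libraries lay at least 10 points above both wild-type libraries, and as lost in the reverse case. In the spike-in set 53 convergent gaps gained H4ac in hda1-/- cells (4.03%, against 2.46% of all gaps) and 50 lost it (3.81%, against 10.4%). Without spike-in 32 gained (2.44%, against 1.99%) and 44 lost (3.35%, against 11.5%). A loss needs at least 10% coverage in both wild-type libraries, which 270 convergent gaps had with spike-in and 249 without. Among these the share lost was 18.5% and 17.7%, against 19.5% and 23.9% of such divergent and 19.6% and 21.3% of such tandem gaps, a count added after seeing the data. Room for a gain of 10 points in both wild-type libraries was present at 1137 convergent gaps with spike-in and 1166 without. Of these 4.66% gained with spike-in, against 4.01% of all such gaps, and 2.74% without, against 2.95%. An excess of gains was thus not present in both sets. The sets shared 17 gained gaps, which is 32.1% of those with and 53.1% of those without spike-in, and 18 lost gaps, 36% and 40.9%. In the spike-in set 895 convergent gaps had no H4ac peak in any of the 4 libraries and 113 were full in all 4, and a peak list can show no change in either of these.

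**Figure D4:**
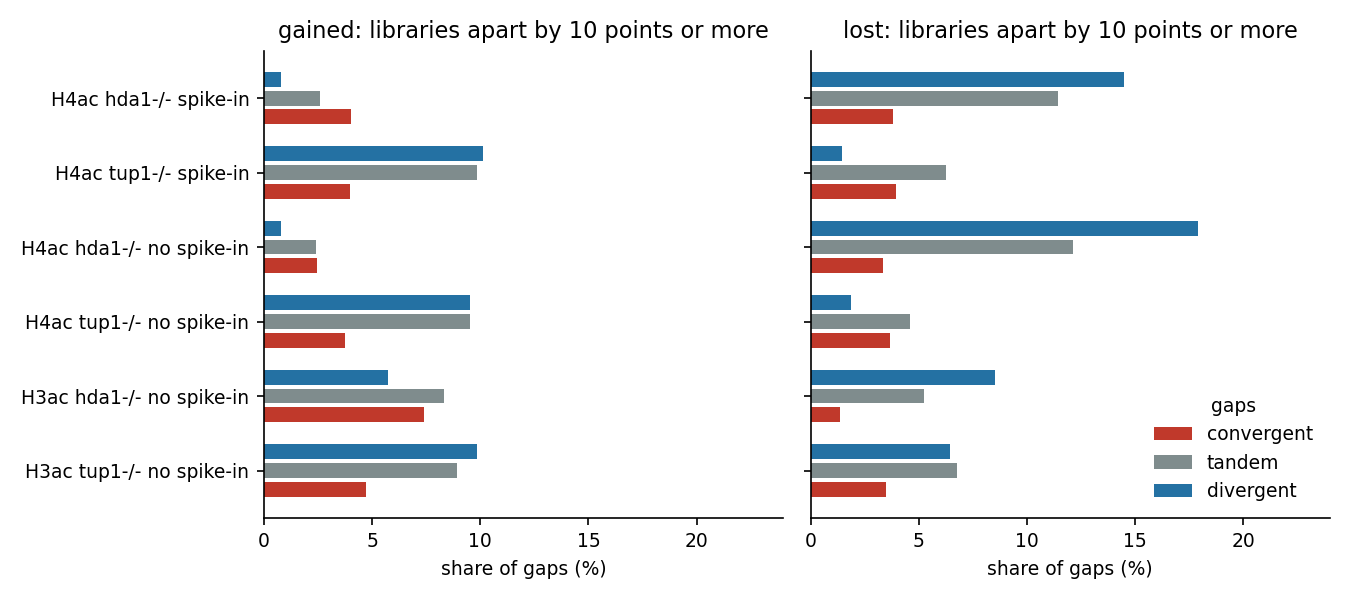
Share of convergent, tandem and divergent gaps (percent) gained or lost in each mutant, where a call needs both mutant libraries at least 10 points beyond both wild-type libraries of the same set. For H4ac in hda1-/- cells 3.81% and 3.35% of the convergent gaps were lost in the 2 sets, shorter bars than for tandem and divergent gaps, of which more carried H4ac peaks in wild type.

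The 5 largest gains of H4ac in hda1-/- cells were ranked by the smaller margin of the 2 sets. YAL064W-YAL063C-A (chrI:21851-22394), between open reading frames without a gene name, had 1.47% and 2.94% in wild type with spike-in, 0% in both without, and 100% in all 4 hda1-/- libraries. It was also at 100% in all tup1-/- libraries of H4ac and H3ac. YJL193W-SOP4 (chrX:72575-72709), at the end of a gene for an endoplasmic reticulum membrane protein, rose from 0% and 13.3% to 100% in both libraries with spike-in and from 0% to 100% without. It was filled by H3ac in wild type already.

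The other 3 of these gaps lay beside genes for ribosomal or mitochondrial proteins. RPS14B-RPS22A (chrX:74612-74909), between genes of the small ribosomal subunit, had 10.4% and 0% in wild type with spike-in and 15.8% and 12.8% without, and 100% in all hda1-/- and all tup1-/- libraries of H4ac. FHN1-PHB1 (chrVII:755251-755588), at the end of the gene for the mitochondrial prohibitin Phb1, had 0% and 35.2% in wild type with spike-in and 5.03% and 15.1% without, against 100% in all 4 hda1-/- libraries. RPS9A-YPL080C (chrXVI:406045-406171) had 0% in all 4 wild-type libraries, 100% in both hda1-/- libraries with spike-in, and 66.9% and 56.7% without. Both gaps beside RPS genes were at 100% in all 4 Hda1-18myc libraries, and the other 3 gained gaps had no anti-myc peak.

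The 5 largest losses were short gaps of 121 to 161 bp. PST1-EMC10 (chrIV:564862-565022), YML108W-PML39 (chrXIII:55111-55264) and MTE1-NQM1 (chrVII:580292-580434) were filled by H4ac in all 4 wild-type libraries and had 0% in all 4 hda1-/- libraries. PST1 encodes a cell wall protein, EMC10 a subunit of an endoplasmic reticulum membrane complex, and NQM1 a transaldolase. In IDP3-ASI3 (chrXIV:616084-616210) wild type had 100% and 100% with and 92.1% and 88.2% without spike-in, and hda1-/- cells 0% throughout. In CHM7-UBX6 (chrX:347326-347446) wild type had 79.3% and 96.7% with and 65.3% and 67.8% without spike-in, against 0% and 0% and 5.79% and 0%. None of the 5 had an anti-myc peak in any library.

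H4ac coverage was higher in hda1-/- cells than in wild type at the Hda1-bound convergent gaps and not at the others. At the 155 Hda1-bound gaps H4ac coverage was 14.2% and 13.9% in wild type and 22.7% and 23.8% in hda1-/- cells with spike-in. Without spike-in the values were 13.0% and 11.7% against 17.0% and 16.6%. At the 1159 other gaps they were 17.5% and 17.6% against 16.6% and 17.0% with spike-in, and 15.1% and 14.3% against 14.7% and 12.5% without. The change at Hda1-bound gaps exceeded that at the others by 7.76 points over both sets, and by 7.82 points for the 81 without any Untag peak. At the 155 gaps mutant and wild type did not overlap in either set. This split was chosen after its values were seen, so it carries no test. Of the 53 gaps gained with spike-in, 17 (32.1%, against 11.8% of all convergent gaps) were Hda1-bound, and of the 50 lost, 1. Without spike-in 8 of 32 gained and 1 of 44 lost gaps were Hda1-bound. A rise at the 155 gaps was not particular to hda1-/- cells. In tup1-/- cells their H4ac coverage was 17.7% and 21.1% with spike-in and 14.0% and 13.5% without, again without overlap with wild type. There the change exceeded that at the other gaps by 4.15 points over both sets. For the 88 Hda1-bound gaps with no ribosomal protein gene at either side it was 1.53 points, and there tup1-/- cells overlapped wild type in both sets.

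In hda1-/- cells gaps beside ribosomal protein genes changed more than the other Hda1-bound gaps. At the 67 Hda1-bound gaps beside such a gene, H4ac coverage was 5.52% and 5.58% in wild type and 22.9% and 24.4% in hda1-/- cells with spike-in, and 5.52% and 5.27% against 12.1% and 10.1% without. At the 88 Hda1-bound gaps with no such neighbour it was 20.8% and 20.3% against 22.6% and 23.4% with spike-in, and 18.6% and 16.6% against 20.6% and 21.5% without. Relative to the 1159 gaps that were not Hda1-bound, the change was 12.8 points for the 67 and 3.89 points for the 88. Of all 69 gaps beside a ribosomal protein gene, 12 (17.4%) gained and 0 lost H4ac with spike-in, and 6 (8.70%) gained and 1 lost it without, where 2.46% and 1.99% of all gaps gained and 10.4% and 11.5% lost it. The median coverage of the 69 was 0% in wild type and in hda1-/- cells of both sets, so the means rest on a minority of them. A gap without wild-type coverage cannot be lost, so the losses among the 69 are not comparable with the shares of all gaps. RPL13A-RPP1A (chrIV:309389-309801), which lies between a pair of ribosomal protein genes, had 43.8% and 36.8% in wild type with spike-in and 42.9% and 31.7% without, and 100% in all 4 hda1-/- libraries. Many ribosomal protein genes have a near-identical copy elsewhere in the genome, and how reads matching both were placed is not given in the sources used here.

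**Figure D5:**
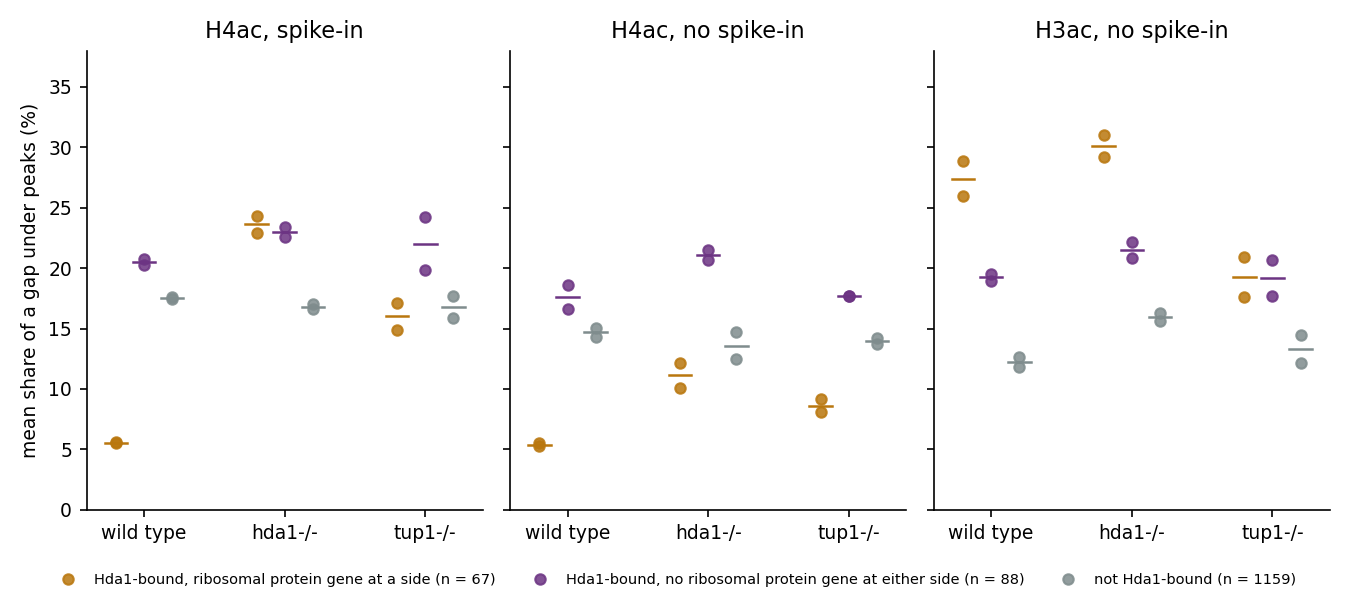
Mean H4ac and H3ac peak coverage (percent of gap length) of convergent gaps in wild type, hda1-/- and tup1-/- cells, with 1 point per library and a bar at the mean of 2. Hda1-bound gaps beside a ribosomal protein gene (ochre) go from 5.52% and 5.58% to 22.9% and 24.4% in H4ac of the spike-in set. Gaps that did not count as Hda1-bound (grey) go from 17.5% and 17.6% to 16.6% and 17.0%.

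In tup1-/- cells mean H4ac coverage of convergent gaps overlapped that of wild type in both sets. With spike-in it was 16.1% and 18.1%, against 17.1% and 17.2% in wild type (difference -0.0478 points, exact permutation p = 1). Without spike-in it was 14.2% and 13.7%, against 14.8% and 14.0% (difference -0.475 points, exact permutation p = 0.667). Over both sets the difference was -0.261 points (exact permutation within sets, p = 0.667). Divergent and tandem gaps were higher in tup1-/- cells, so that the change at convergent gaps was 5.73 points below that at divergent and 2.78 points below that at tandem gaps (exact permutation within sets, p = 0.0556 in both, the smallest possible). The difference against tandem gaps was -1.65 points at equal covered length and -1.10 points with gaps of 200 to 500 bp only (exact permutation p = 0.111).

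Gains and losses were about equal in number among convergent gaps. With spike-in 52 gained H4ac in tup1-/- cells (3.96%, against 8.50% of all gaps) and 52 lost it (3.96%, against 4.45%). Of the 270 that could be lost 19.3% were, against 1.98% of such divergent and 10.7% of such tandem gaps. Without spike-in 49 gained (3.73%, against 8.13%) and 48 lost (3.65%, against 3.66%). Of the 249 that could be lost there 19.3% were, against 6.97% of all, 2.53% of divergent and 8.07% of tandem gaps of that kind. Among convergent gaps with room for a gain, 4.57% gained H4ac with spike-in, against 13.8% of all such gaps. The shares without spike-in were 4.20% and 12.1%. The sets shared 29 gained gaps, 55.8% of those with and 59.2% of those without spike-in, and 19 lost gaps, 36.5% and 39.6%. The 5 largest gains were all from 0% in the 4 wild-type libraries to 100% in the 4 tup1-/- libraries. They were YMR320W-YMR321C (chrXIII:917052-917578), DIP5-YPL264C (chrXVI:42870-43282), DER1-MIN7 (chrII:624212-624492), SQT1-GAT4 (chrIX:379782-380018) and HYR1-GTT1 (chrIX:423620-423808). DIP5 encodes a permease for dicarboxylic amino acids, DER1 a factor of protein degradation at the endoplasmic reticulum, HYR1 a thiol peroxidase and GTT1 a glutathione transferase. In hda1-/- cells none of these 5 had H4ac coverage above 37.0% in any library.

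H4ac coverage at the Hda1-bound gaps beside ribosomal protein genes was higher in tup1-/- cells too. At these 67 gaps it was 14.9% and 17.1% with spike-in, against 5.52% and 5.58% in wild type, and 9.16% and 8.07% without, against 5.52% and 5.27%. The groups did not overlap in either set. In both sets the tup1-/- values lay below those of hda1-/- cells. At the 88 Hda1-bound gaps with no such neighbour, tup1-/- cells had 19.8% and 24.2% with spike-in, against 20.8% and 20.3% in wild type. Without spike-in they had 17.7% in both libraries, against 18.6% and 16.6%. Of all 69 gaps beside such a gene, 9 (13.04%) gained and 1 lost H4ac with spike-in, and 3 (4.35%) gained and 0 lost it without, where 8.50% and 8.13% of all gaps and 3.96% and 3.73% of the convergent gaps gained it. Their share gained was thus above that of all gaps with spike-in and below it without.

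The 5 largest losses of H4ac in tup1-/- cells went to 0% in all 4 libraries. FRE4-YNR061C (chrXIV:742111-742880), beside a gene for a ferric reductase, AIM29-YKR075C (chrXI:579677-579826) and LSM5-SCC4 (chrV:462867-462967), beside the gene for a loader of cohesin, were at 100% in all 4 wild-type libraries. YMR317W-ADH6 (chrXIII:910787-911060), beside a gene for an alcohol dehydrogenase, had 93.1% and 100% with and 100% in both without spike-in. RIM4-NPR3 (chrVIII:58791-59122), beside the gene for a meiotic RNA-binding protein, had 80.4% and 83.4% with and 81.6% and 77.1% without. In hda1-/- cells RIM4-NPR3 had 32.2% and 37.0% with and 0% in both without spike-in. The other 4 had at least 63.2% in every hda1-/- library.

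H3ac coverage of convergent gaps was higher in hda1-/- cells. It was 17.3% and 16.8%, against 13.9% and 13.0% in wild type, a difference of 3.58 points without overlap (exact permutation p = 0.333, the smallest possible), and of 1.81 points at equal covered length. Tandem gaps were also higher in the mutant, by 1.64 points, while the difference at divergent gaps was -2.62 points. The change at convergent gaps exceeded that at tandem gaps by 1.94 points (exact permutation p = 0.333). The H3ac peaks of hda1-/- cells covered 3131883 and 3152437 bp of the genome, against 2720225 and 2681703 bp in wild type. Of the convergent gaps 97 gained H3ac (7.38%, against 7.41% of all gaps) and 18 lost it (1.37%, against 5.17%). In wild type 78.8% and 78.5% of the convergent gaps had no H3ac peak to lose. Of the 218 with at least 10% coverage in both wild-type libraries 8.26% were lost, against 11.8% of all such gaps. Of those with room for a gain of 10 points in both wild-type libraries 8.23% gained H3ac, against 10.3% of all such gaps. The higher H3ac coverage of convergent gaps in hda1-/- cells was present in each length class and reached 36.04% and 34.8% against 24.4% and 21.2% in the 61 gaps of 1000 to 2000 bp. Unlike for H4ac, the change at Hda1-bound gaps was 1.27 points below that at the others: 23.2% and 22.3% in wild type against 24.5% and 26.02%, where the 1159 other gaps went from 12.7% and 11.8% to 16.3% and 15.6%. At the 21 gaps beside a gene of meiosis, none of them Hda1-bound, H3ac coverage was 11.6% and 8.39% in wild type and 26.6% and 24.7% in hda1-/- cells. Of these gaps 4 gained H3ac (19.0%, against 7.41% of all gaps) and 0 lost it. The median coverage of the 21 was 0% in wild type and in hda1-/- cells, so these means rest on a minority of them.

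The 5 largest gains of H3ac in hda1-/- cells went from 0% in both wild-type libraries to 100% in both mutant libraries. REE1-IMA5 (chrX:23730-24340), at the end of a gene for an isomaltase, and KTR1-CRC1 (chrXV:513007-513294), between genes for a mannosyltransferase and a mitochondrial carnitine carrier, were 2 of them. AIM39-DDR2 (chrXV:231273-231569), beside a stress-induced gene, DER1-MIN7 and YAL064W-YAL063C-A were at 100% in both tup1-/- libraries as well. The 5 largest losses were RRP17-ERD1, DCK1-ATG17, SEN1-ATG23, SPC29-RNY1 and THI12-AAD14. Of these, DCK1-ATG17 (chrXII:971696-971916) had 79.6% and 100% in wild type and SEN1-ATG23 (chrXII:1000130-1000341) 77.8% and 100%, and both had no peak in any mutant library of either mark.

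In tup1-/- cells H3ac coverage was 15.2% and 12.8%, which overlapped the wild-type values of 13.9% and 13.0% (difference 0.515 points, exact permutation p = 1). Of the convergent gaps 62 gained it (4.72%, against 8.15% of all gaps) and 46 lost it (3.50%, against 5.89%). Among gaps that could be lost the order was reversed. Of the 218 such convergent gaps 21.1% were lost, against 13.4% of all, 10.7% of divergent and 13.9% of tandem gaps. Among those with room for a gain 5.26% of convergent gaps gained it, against 11.3% of all. Of the 46 lost, 11 (23.9%) were Hda1-bound, against 11.8% of all convergent gaps. At the 67 Hda1-bound gaps beside ribosomal protein genes, H3ac coverage was 28.9% and 26.0% in wild type and 20.9% and 17.6% in tup1-/- cells. Of all 69 gaps beside such genes, 0 gained H3ac (against 8.15% of all gaps) and 5 lost it (7.25%, near the 5.89% of all gaps). The median H3ac coverage of the 69 was 0% in wild type and in tup1-/- cells. Among the 5 lost were ARO2-RPL9A (chrVII:227530-227753) and RPS31-UPS2 (chrXII:499406-499577), which went from 100% in both wild-type libraries to 0% in both tup1-/- libraries. Of the 5 largest gains, YJR149W-DAN1 (chrX:708375-708810), at the end of a gene for a cell wall mannoprotein of anaerobic cells, went from 0% to 100% in both libraries, and the other 4 were YAL064W-YAL063C-A, YMR320W-YMR321C, AIM39-DDR2 and DER1-MIN7. The tup1-/- and hda1-/- libraries were compared with the same wild-type libraries, so calls shared by the mutants are not independent.

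Both remaining gaps beside genes that the study names, PCA1-PHO89 (chrII:796500-796797) and STE11-NMD4 (chrXII:852020-852494), had no peak of any kind in any of the 30 libraries. PCA1 encodes a metal-transporting ATPase, PHO89 a phosphate transporter and STE11 a kinase of the mating pathway.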

How the data were processed

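ChIP-seq peak lists of 30 libraries were used. The other 24 samples in the labels have no peak list and were not analysed here. According to the study's methods the authors aligned reads with Bowtie2, and MACS2 called the peaks with q-values of at most 0.05. The submitters' processing notes give Bowtie2 2.2.5, Picard 2.6, BEDTools 2.26.0 and MACS2 2.1.0. The weakest listed q was below 0.01 in every library without spike-in and up to 0.0474 in the spike-in set. Each deposited row holds positions, a score, the fold enrichment at the summit (a ratio made by the authors) and −log10 of the p-value and q-value. The methods name total H3 as the control of H4ac and H3ac for the enrichment ratio, and the control behind each peak list is not given in the sources used here. The methods say that all ChIP-seq but that of H3 acetylation had a spike-in, while the labels divide H4ac and anti-myc libraries, and the labels were followed. The methods name genome R61-1-1 and the processing notes R64. With the R64 table moved by 100 bp either way, the wild-type H4ac difference between divergent and convergent gaps fell from 49.1 to 48.4 and 48.3 points, and coordinates are given as R64 on that basis.

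Peaks of a library were merged, and the share of each gap beneath them was computed (Python 3.11.15, numpy 2.4.6, pandas 2.3.3). Depth is unknown. Group means were compared by exact permutation over libraries (two-sided) and class differences by exact sign-flips, adjusted by Benjamini-Hochberg over 6 tests. Members, lists and tests were chosen with earlier results of these data known. Named gaps were the 5 largest gains and losses per mutant and mark, the 5 with most Hda1-18myc coverage (ties by the peak's fold rank, then length), those beside genes the study names or between a pair of ribosomal protein genes, and those at the length limits. Alternatives were stricter peaks, equal covered length, other gap lengths, gaps without RNA genes, the central 100 bp, a moved table, a margin of 25 points, binding by 1 bp, numbered pairs and libraries left out.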

Additional observations from a re-analysis of the deposited data

How the results depend on the processing

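The 34 results were recomputed under alternative settings other than leaving out a library, which gave 164 values, and 138 of these counted as unchanged. For results with a p-value this meant the same direction and the same side of the threshold. For counts of gaps, which have no p-value, it meant a count within a fixed ratio of the reported one. A stricter peak cutoff, the central 100 bp of each gap and a gene table moved by 100 bp changed none. Apart from those for the Arb2 domain, the results that turned were mean differences under 1 point. With gaps of 200 to 500 bp only, the H4ac difference between tup1-/- and wild type became 0.214 points with spike-in, that for hda1-/- became 0.421 without spike-in and 1.53 over both sets, and the H3ac difference for tup1-/- became -1.36. Without gaps holding an RNA gene, the hda1-/- H4ac difference over both sets became 0.0174. With equal covered length it became 0.190 without spike-in and 0.865 over both sets, the H3ac difference for tup1-/- became -0.594, and those for the Arb2 domain became 0.0269 and 1.39.

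At equal covered length the lead of convergent over tandem gaps for tagged Hda1 fell to 0.0498 points, and the Hda1-bound counts to 6 with spike-in and 32 without, with 30 for the domain-deleted protein without spike-in. The common length was that of the shortest list compared, 49817 bp for the lead, at which little of any class can be covered. With 1 bp as the condition, the domain-deleted protein met it at 12 and 106 gaps. With the Hda1-18myc libraries alone, an alternative added after seeing the data, the class differences were 6.98 and 4.86 points. A margin of 25 points left 32 gained and 34 lost H4ac gaps for tup1-/- with spike-in and 27 and 27 without, 21 and 18 for hda1-/- without spike-in, 57 gained H3ac gaps for hda1-/- and 27 lost for tup1-/-.

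The replicate numbers were only shared labels: correlations of same-numbered deviations ran from -0.0499 to 0.0916. With the replicate number as a replicate block, no call changed: the change against tandem gaps in hda1-/- cells stayed 6.53 points (exact sign-flip p = 0.125 over 4 pairs, the smallest possible), and 55 convergent gaps gained H4ac with spike-in.

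Leaving out single libraries gave these ranges. Class differences for H3ac were -34.6 to -33.1 and -23.9 to -23.2 points. Mean differences were -1.06 to 0.968 for H4ac in tup1-/- cells with spike-in, -1.44 to 0.523 in hda1-/- cells without, -0.495 to 0.488 and -0.769 to 0.246 over both sets in hda1-/- and tup1-/- cells, -0.696 to 1.73 for H3ac in tup1-/- cells, and -15.4 to -6.94 with and -8.86 to -4.60 without spike-in for the Arb2 domain. Gained H4ac gaps in hda1-/- cells numbered 59 to 82 with and 43 to 62 without spike-in, and lost ones 67 to 76 and 56 to 81. In tup1-/- cells gained ones numbered 60 to 88 with spike-in, and lost ones 64 to 82 with and 60 to 80 without. Lost H3ac gaps numbered 35 to 52 and 50 to 84. The domain-deleted protein was bound at 6 to 119 and 46 to 107 gaps, depending on the library left out (replicate 2 in both sets for the higher count). These counts rose by construction, since a call then needs fewer libraries.

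Peak lists show presence above a cutoff and not the amount of signal, the number of reads is unknown, and with 2 libraries per group no comparison between groups of 1 set can reach 0.05.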
